A study of Mus musculus with 6 samples.

Results

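Heart muscle cells isolated from adult mice were compared with those isolated from newborn mice, on 4 of the 6 arrays of the study. The members were chosen by the source name of each sample, which gave 2 arrays of adult and 2 arrays of neonatal cardiomyocytes. The other 2 arrays held fibroblasts of the newborn heart, which make its connective tissue. They are used here to estimate the spread and to set levels side by side. They also enter the choice of probe set for each gene and the correlations over the 6 arrays. All cells were of the C57BL/6J strain, were dissociated with trypsin and collagenase, and gave total RNA by Trizol extraction. The adult cells came from males at 8 weeks of age and were released by Langendorff perfusion, in which the heart is perfused through the aorta. Newborn hearts of either sex, taken at postnatal day 1, gave the neonatal cells, which were enriched by density on Percoll. Age, sex and isolation method therefore differed together and cannot be told apart. Whether replicate arrays stand for separate animals or preparations is not stated in the labels, so each p-value measures only how far these arrays vary, and that variation may be technical.

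Around birth the mammalian cardiomyocyte still divides. In the following weeks it leaves the cell cycle, exchanges fetal for adult isoforms of contractile proteins and ion channels, and shifts its fuel from glucose and lactate towards fatty acids. The comparison asks which transcripts accompany that change in isolated cells.

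Values are log2 expression values per probe set, made with RMA, a method that subtracts background, equalises the arrays by quantiles and joins the probes of each set into 1 value. Each gene was represented by 1 probe set, the one of highest mean on the 6 arrays among those annotated to that gene alone, which gave 18193 genes. A log2 difference of 1 is a 2-fold difference, and all differences are adult minus neonatal. Pairs of values are given in the order replicate 1, replicate 2. Levels were compared between arrays and never between probe sets. In the text, rose and fell are kept for genes whose Benjamini-Hochberg adjusted p from limma was under 0.05. With 2 arrays against 2 an exact permutation test of a single gene cannot go below p = 0.333.

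The labels carry 1 conflict that touches the neonatal group. The titles of the neonatal cardiomyocyte replicate 1 array and of the fibroblast replicate 1 array each name the other cell type, and the source name was followed. On the array grouped as neonatal cardiomyocyte replicate 1 the cardiac genes Tnnt2, Myl2 and Ryr2 measured 14.33, 14.50 and 11.87. On the array grouped as fibroblast replicate 1 they measured 11.89, 8.41 and 4.87. The library labelled by source as cardiomyocytes thus had the higher level of each of these 3 genes. Across all genes the Pearson correlation was 0.974 between the adult arrays and 0.957 between the neonatal arrays, against 0.896 to 0.937 between an adult and a neonatal array. Between the adult arrays 115 genes lay over 2 log2 units apart, and between the neonatal arrays 443. These are bulk preparations, in which fewer cells of a type and less RNA per cell cannot be told apart.

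Adult and neonatal cardiomyocytes differed in 418 genes, 2.3% of those tested. Of these, 196 genes (1.08%) rose and 222 genes (1.22%) fell. In all 196 and all 222 the adult and neonatal arrays did not overlap, so a lack of overlap adds nothing to a call. Over all genes both adult arrays lay above both neonatal ones in 33.9% and below them in 23.8%. The median difference was 2.20 log2 units among the genes that rose and −2.63 among those that fell, against 0.09 over all genes. The decreases reached further: 87 of the 222 genes that fell did so by over 3 log2 units, and 47 of the 196 genes that rose. Counted without a model, both adult arrays lay at least 1 log2 unit above both neonatal arrays for 441 genes (2.42%) and below them for 622 genes (3.42%). By the mean alone, adult cells were higher for 10450 of the 18193 genes and lower for 7742. Counts in the lists below are to be read beside these. That holds for genes that rose or fell, for arrays at least 1 log2 unit apart and for higher or lower adult means. Among the genes that fell, the median level was 8.99 in neonatal cardiomyocytes, 5.87 in adult ones and 8.99 in fibroblasts. Fibroblasts lay above adult cardiomyocytes in the mean for 214 of the 222, against 44.0% of all genes. They lay above neonatal cardiomyocytes for 123 of the 222, against 52.6% of all genes. The genes that rose had a median of 6.88 in neonatal cardiomyocytes, 9.40 in adult ones and 5.99 in fibroblasts. Fibroblasts lay below adult cardiomyocytes for 194 of the 196 and below neonatal ones for 165. Both sets of genes were chosen by their adult and neonatal values. Where fibroblasts lie beside those groups is partly fixed by that choice, and no conclusion about fibroblasts is drawn from it.

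The number of calls rests on the few arrays. No gene was called in limma without adult replicate 1, adult replicate 2 or neonatal cardiomyocyte replicate 2, while 2572, 3303 and 2729 genes passed at unadjusted p under 0.05, and 4157 (22.8%) with all arrays. Without neonatal cardiomyocyte replicate 1 the count was 163, 164 when either fibroblast array was dropped, and 114 when arrays were grouped by their titles. With the replicate number as a block, limma called 607 genes, of which 234 rose and 373 fell.

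**Figure D1:**
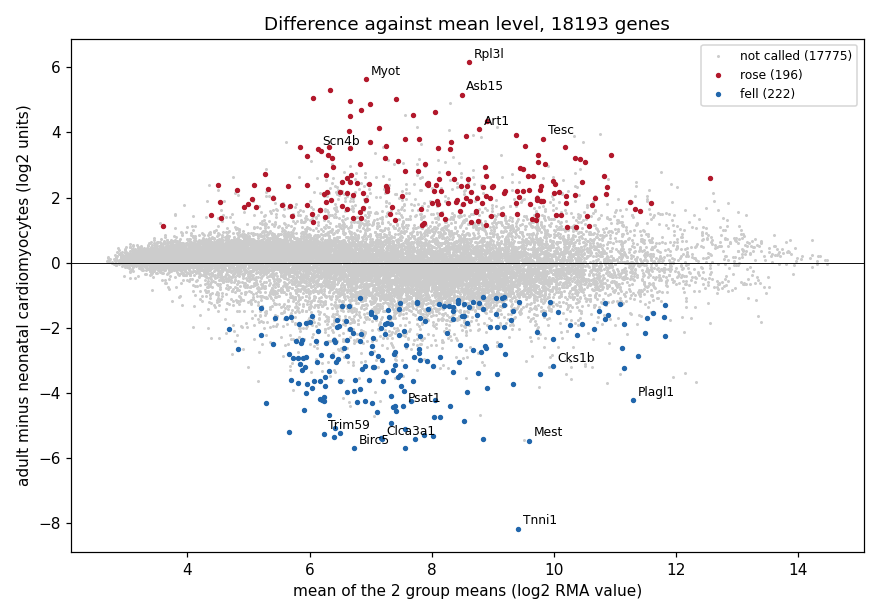
Difference between adult and neonatal cardiomyocytes (log2 units, y axis) against the mean of both group means (log2 RMA value, x axis), 1 point per gene. Red points are the 196 genes that rose, blue points the 222 that fell and grey points the genes not called, and the line marks 0. Tnni1 lies lowest at −8.17 and Rpl3l highest at 6.16.

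The largest increase was in Rpl3l, a paralogue of ribosomal protein L3 made in striated muscle. It measured 11.56 and 11.82 in adult cells, against 5.48 and 5.57 in neonatal cells, a difference of 6.16 ± 0.22 (SE, adjusted p = 0.00696). The gap between the groups was many times the gap within either. Myot, which encodes the Z-disc protein myotilin, measured 10.55 and 8.93 against 4.40 and 3.80 (5.64 ± 0.56, SE). Its adult arrays lay further apart than those of Rpl3l and, as for every gene that rose, did not overlap the neonatal ones. The fibroblast arrays read 3.97 and 4.37 for Rpl3l and 3.61 and 3.67 for Myot, below both cardiomyocyte groups.

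Further large increases were in genes of several roles. Lrg1, a secreted leucine-rich glycoprotein, read 9.53 and 8.83 against 5.07 and 3.92. Tuba8, an alpha tubulin, was 25-fold higher, and Tmod4, a tropomodulin that caps thin filaments in skeletal muscle, 22.9-fold. On both the adult arrays were the high ones. Art1, a muscle ADP-ribosyltransferase, had one of the smallest adjusted p-values at 0.0123, from 10.79 and 10.86 against 6.67 and 6.78. Fbp2, the muscle fructose bisphosphatase, rose by 3.80, the mitochondrial acetyl-CoA synthetase gene Acss1 by 3.93 and the mitochondrial carrier gene Slc25a34 by 3.90. Coq10a, a protein of coenzyme Q handling, rose by 3.32 with 4 of 4 probe sets in that direction. Tesc, the calcium-binding tescalcin, rose by 3.80 and the phospholipase gene Plaat1 by 4.14. Lrtm1, Gdap10 and AW112010 rose by 4.54, 4.35 and 4.05, and the adjusted p of AW112010 was 0.0568 with the replicate block. Plet1os, a noncoding transcript, and Smco1 rose by 5.31 and 5.07.

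The largest decrease was in Tnni1, the slow skeletal troponin I that the fetal heart uses. It measured 13.86 and 13.15 in neonatal cells and 5.42 and 5.25 in adult cells, a 288-fold difference (−8.17 ± 0.89, SE, adjusted p = 0.0278). On the fibroblast arrays it read 6.80 and 9.53. Next came Birc5, which encodes survivin, a subunit of the chromosomal passenger complex. Its values were 9.84 and 9.33 in neonatal and 3.65 and 4.12 in adult cells (−5.70 ± 0.42, SE, adjusted p = 0.0181). Fibroblasts, at 9.03 and 10.08, overlapped the neonatal cardiomyocytes. Bex4, Clca3a1, Trim59, Depdc1a and the tubulin gene Tubb2b also fell, by 5.69, 5.43, 5.25, 5.19 and 4.93.

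Of the 20 largest decreases, 10 belonged to the list of mitosis and cytokinesis genes. That list held 64 measured genes of spindle, kinetochore, chromosome condensation, mitotic kinases and cytokinesis, and 43 of them fell, against 1.22% of all genes. The list's median difference was −3.54, and no member rose. Its median level was 5.24 and 5.29 on the adult arrays, 9.46 and 8.37 on the neonatal ones, and 8.25 and 9.09 on the fibroblast arrays. The adult arrays were the low ones, and the neonatal cardiomyocytes and the fibroblasts overlapped. For 56 of the 64 genes both adult arrays lay at least 1 log2 unit below both neonatal arrays.

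The members span the steps of division. Cdk1, the kinase that drives entry into mitosis, measured 10.44 and 9.79 in neonatal and 4.56 and 5.44 in adult cells. Its partner cyclin Ccna2 fell by 4.55 and its small binding protein gene Cks2 by 5.31. Bub1, a kinase of the spindle checkpoint, read 9.63 and 8.60 against 3.65 and 4.14. For these 4 genes both adult arrays lay far below both neonatal ones. Aurkb and Plk1, further mitotic kinases, fell by 3.20 and 2.77. Top2a, which untangles chromosomes, fell by 4.73, although 1 of its 3 probe sets pointed the other way, and the proliferation marker Mki67 fell by 4.74. Ube2c, an enzyme that marks cyclins for destruction, fell by 4.86. The cytokinesis genes Anln, Ect2 and Cep55 fell by 5.41, 5.07 and 5.37, and Cep55 read 3.71 and 3.72 on the adult arrays. Nuf2 and Kif2c, of the kinetochore, fell by 4.69 and 4.18.

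Some members did not pass. Stmn1, a microtubule regulator, differed by −3.21 with an adjusted p of 0.0506, and Nusap1 by −4.39 with 0.0537 and 1 of 2 probe sets in that direction. Foxm1, a transcription factor of the mitotic genes, read 7.38 and 7.14 in adult and 7.46 and 6.86 in neonatal cells, a difference of 0.10 with a 95% confidence interval from −0.54 to 0.74. Only 2 of its 4 probe sets shared that sign. The member with the highest difference, Pttg1, which encodes securin, was singled out after its values were seen, at 1.05 (adjusted p = 0.0962). The 43 calls became 0 without adult replicate 1, adult replicate 2 or neonatal cardiomyocyte replicate 2, 14 without neonatal cardiomyocyte replicate 1, and 25 when either fibroblast array was dropped. In those settings limma passed between 56 and 61 members at unadjusted p under 0.05, and the list's median stayed between −3.19 and −3.87.

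**Figure D2:**
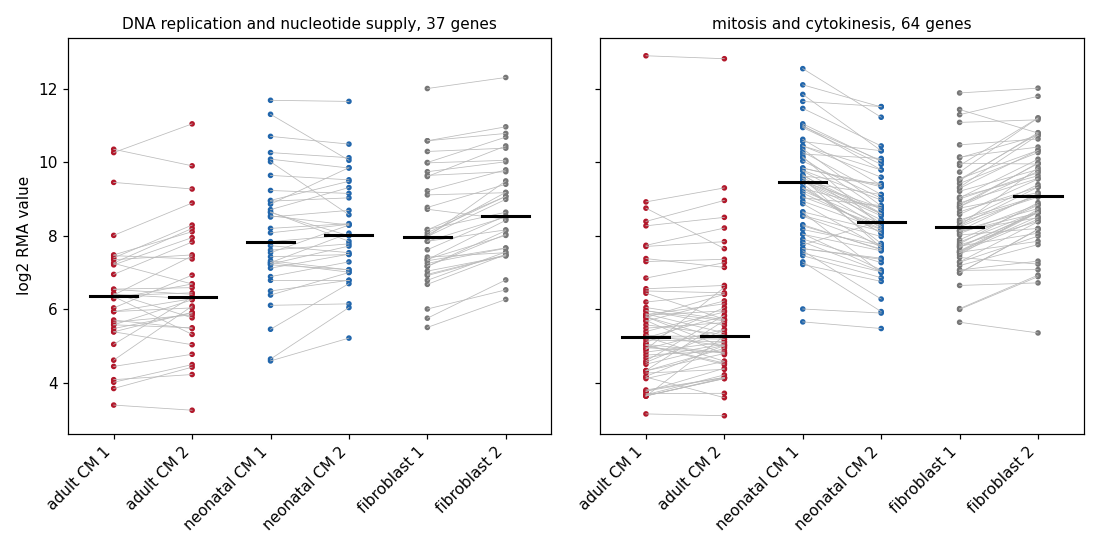
Log2 RMA values (y axis) of the 37 measured DNA replication and nucleotide supply genes (left) and the 64 measured mitosis and cytokinesis genes (right) on each of the 6 arrays (x axis; CM, cardiomyocytes). Points are genes, grey lines join the replicates of a group and black bars are medians. The mitosis medians on the adult arrays are 5.24 and 5.29, against 8.25 to 9.46 on the other arrays.

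The mitosis genes were also examined for short promoter motifs, because they fell together. The window ran from 250 bases before to 50 bases after the gene's start, from RefSeq on build GRCm38.p6, and 14452 of the 18193 genes had one. For 2661 genes several starts were listed. Only the first listed was used, and the positions below depend on that choice. A cell cycle genes homology region, or CHR, was counted as TTTGAA or TTCGAA on either strand (TTCAAA is the reverse complement of TTTGAA, and TTCGAA is its own). Such a match stood in 38 of 52 windows of the mitosis list (73.1%), in 15% of all windows, in 34.6% of those of genes that fell and in 11.9% of those of genes that rose. A match describes letters and is neither a shown binding site nor a cause. These are the windows of 8 of the genes that fell, with the match nearest to the gene's start in capitals, read 5′ to 3′ on the gene's strand.
Anln (chr9:22389168-22389197, minus strand): ggggcgctgaaaTTCAAAttttgaacggcc
Cep55 (chr19:38054996-38055025, plus strand): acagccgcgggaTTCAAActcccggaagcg
Bub1 (chr2:127831828-127831857, minus strand): ctgcgcggggaaTTCGAAtcgccggcggcc
Cdk1 (chr10:69352910-69352939, minus strand): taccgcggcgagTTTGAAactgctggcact
Ube2c (chr2:164769888-164769917, plus strand): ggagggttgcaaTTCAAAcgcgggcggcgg
Mki67 (chr7:135716460-135716489, minus strand): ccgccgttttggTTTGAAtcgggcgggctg
Top2a (chr11:99024195-99024224, minus strand): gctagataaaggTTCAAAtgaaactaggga
Spc25 (chr2:69206172-69206201, minus strand): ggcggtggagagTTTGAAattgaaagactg

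The position of the match also differed from that over all genes. Counted from the gene's start as 0, with upstream positions negative, the match nearest to the start lay between 100 bases upstream and 50 downstream in 37 of the 38 mitosis genes (97.4%), with a median of 5. Over all genes with a match it lay there in 876 of 2174 (40.3%), with a median of −127. In Cdk1 it began at −15, in Bub1 at 14 and in Mki67 at −98. It began at −29 in Ube2c and −23 in Top2a, and past the start in Anln, Cep55 and Spc25, at 21, 24 and 24. Spc25, a kinetochore gene named here for its window after its values were seen, fell by 4.59, with 1 of 2 probe sets in that direction. The window of Birc5 held none of the letters searched for CHR, E2F or CCAAT. The CCAAT box, CCAAT or ATTGG, stood in 69.2% of mitosis windows and 38.2% of all windows. The median GC content was 58.5% in the mitosis windows and 58.7% over all.

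Of 37 measured genes of DNA replication and nucleotide supply, 10 fell and none rose, and the median difference was −1.72, beside −3.54 for the mitosis list. Rrm2, the small subunit of ribonucleotide reductase, which makes DNA building blocks, fell from 11.30 and 10.05 to 4.62 and 6.09. Mcm5, a subunit of the helicase that opens replication origins, fell from 8.96 and 9.48 to 5.48 and 5.90, and its partners Mcm6 and Mcm7 fell by 3.04 and 2.80. On all 4 the adult arrays were the low ones. Rrm1 fell by 2.61, with 2 of 3 probe sets in that direction, and the thymidine kinase gene Tk1 by 2.56, with an adjusted p of 0.0542 with the replicate block. Pcna, the sliding clamp, kept a high signal in both groups, at 10.26 and 11.04 in adult and 11.68 and 11.65 in neonatal cells, a difference of −1.02 that did not pass (adjusted p = 0.144). Pclaf, a PCNA-binding factor outside the list, fell by 4.26, with 2 of 3 probe sets in that direction. The 10 calls became 0 without adult replicate 1, adult replicate 2 or neonatal cardiomyocyte replicate 2, 1 without neonatal cardiomyocyte replicate 1, and 2 when either fibroblast array was dropped.

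The replication windows held another motif. E2F was counted as TTTCCCGC, TTTGGCGC, TTTGCCGC or TTTCGCGC on either strand, and a window could count for several motifs, overlapping ones included. It stood in 12 of 31 replication windows (38.7%), in 7.69% of mitosis windows and in 3.38% of all, while CHR stood in 16.1% of replication windows. Of the replication genes that fell, 5 held E2F, and their windows follow, with the match nearest to the gene's start in capitals. In Mcm5 another match, TTTCGCGC, overlaps the marked one.
Mcm5 (chr8:75109349-75109378, plus strand): caagaactttcGCGCCAAAacgtccagcct
Mcm6 (chr1:128359734-128359763, minus strand): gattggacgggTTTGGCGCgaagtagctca
Mcm7 (chr5:138171849-138171878, minus strand): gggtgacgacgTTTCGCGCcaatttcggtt
Clspn (chr4:126556990-126557019, plus strand): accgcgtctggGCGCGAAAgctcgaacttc
Mcm3 (chr1:20820275-20820304, minus strand): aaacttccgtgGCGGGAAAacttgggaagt
Of these genes Mcm3 fell least, by 1.85 with 4 of 5 probe sets in that direction, and Mcm5 most, by 3.52, while Clspn fell by 2.48. Mcm3 and Clspn are named here for their windows, after their values were seen. In Mcm6 the match began at −47 and in Mcm3 at 19. Members not called also held the motifs, E2F in 7 of 21 replication windows and CHR in 10 of 15 mitosis windows. Members that fell held E2F in 5 of 10 replication windows and CHR in 28 of 37 mitosis windows. Under 80% of the members not called had a window, as of all genes (79.4%), and these shares were not tested. Outside both lists, genes that fell held CHR in 25.4% and E2F in 6.52% of windows.

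Of 34 measured G1 cyclins, kinase inhibitors and E2F family genes, 3 fell and none rose, with a median of −0.80. Those 3 were Cdk4, a G1 kinase (from 9.85 and 9.83 to 8.26 and 8.24), the atypical repressor gene E2f8 (−1.78) and Cdkn3, a phosphatase that acts on cyclin-dependent kinases (−3.65). Ccnd1 and Ccnd2, D-type cyclins, differed by −0.90 and −1.19 and were not called. The inhibitors Cdkn1a and Cdkn1b differed by −1.04 and −0.57 and Meis1, a homeodomain factor, by −0.70, each with an adjusted p over 0.05. Among 35 chromatin and fetal RNA-binding factors 4 fell, with a median of −0.77. Ezh2, the methyltransferase of the Polycomb repressive complex, read 9.27 and 9.10 in neonatal and 6.37 and 6.41 in adult cells. Uhrf1, which maintains DNA methylation at replication, fell by 2.88, the histone chaperone gene Asf1b by 2.01 and the transcription factor gene Sox4 by 2.88, with 5 of 8 Sox4 probe sets in that direction. Hmga2, a chromatin protein of fetal cells, read 6.60 and 9.48 on the neonatal arrays and was not called. Igf2bp3 differed by −0.18.

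Of 29 measured imprinted and fetal growth genes, 5 fell and none rose (median −1.17). Mest, from the paternal allele, measured 13.12 and 11.53 in neonatal and 6.50 and 7.22 in adult cells, and Plagl1, a zinc finger factor of an imprinted network, 13.54 and 13.29 against 8.92 and 9.45. On both the adult arrays were the low ones. The noncoding transcript Rian fell by 2.85 and Peg3 by 3.74, with 3 of 5 Peg3 probe sets in that direction. Igf1r, the receptor of insulin-like growth factors, read 10.06 on both neonatal arrays, against 7.98 and 8.17 in adult cells, and all 5 of its probe sets pointed down. Igf2, a ligand of that receptor, read 13.50 on neonatal replicate 1 and 10.63 on replicate 2, and its difference of −3.58 was not called (adjusted p = 0.217). Igfbp2, a binding protein of the ligand, varied as widely between the neonatal arrays, at 6.95 and 10.32.

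**Figure D3:**
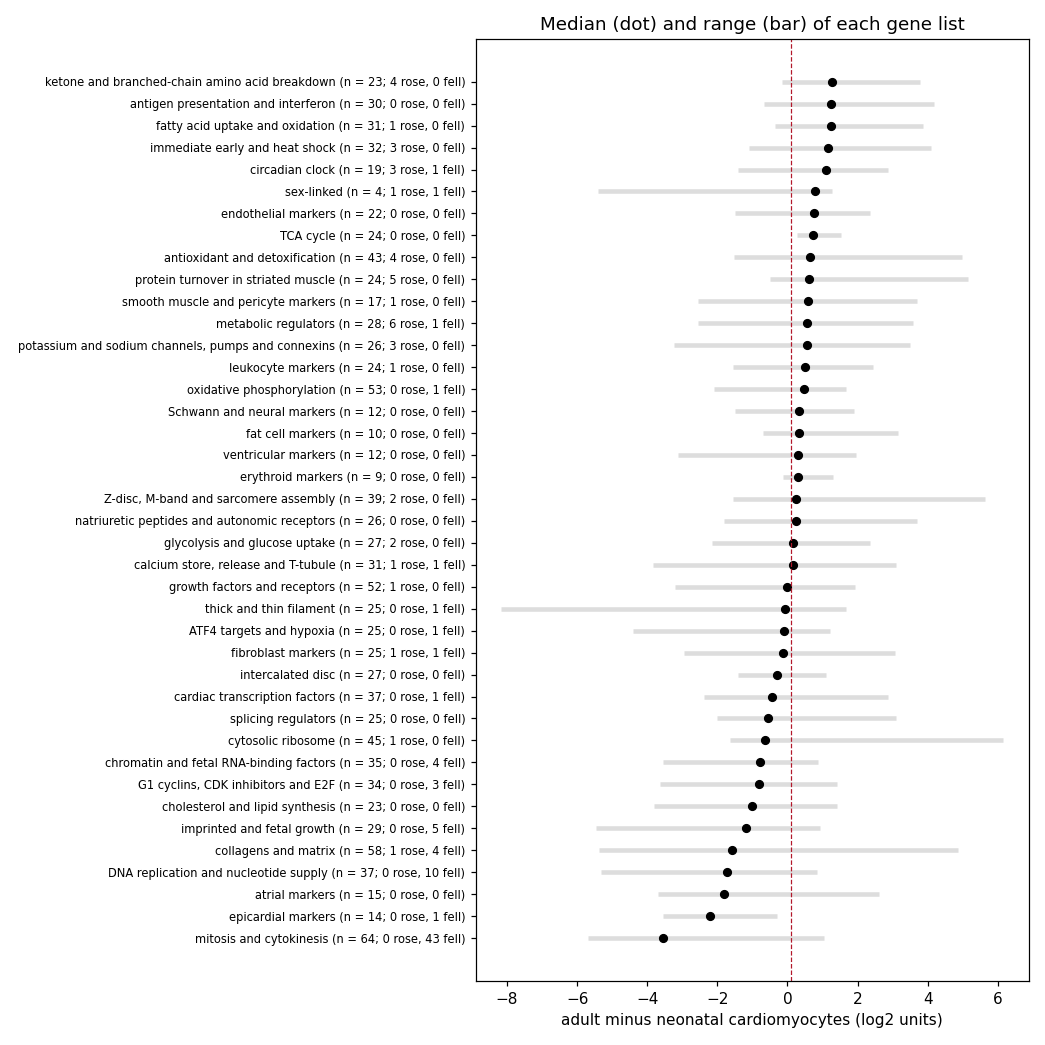
Median (dot) and range (bar) of the adult minus neonatal difference (log2 units, x axis) for the 40 gene lists, with the members measured and the numbers that rose and fell beside each name. The dashed line marks the median of all genes, 0.09. The mitosis list lies lowest, at −3.54, and the list of ketone and branched-chain amino acid breakdown highest, at 1.28.

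Thick and thin filament genes differed in both directions. Of 25 measured 1 fell, none rose and 6 passed at unadjusted p under 0.05. For 5 of the 25 both adult arrays lay at least 1 log2 unit below both neonatal ones, against 3.42% of all genes. The median difference was −0.06, which turned to 0.03 when the arrays were centred on their medians. In adult cells the list had median levels of 9.80 and 11.72, against 13.25 and 12.78 in neonatal cells. Tnni3, the cardiac troponin I, measured 13.88 and 14.06 in adult and 13.58 and 13.71 in neonatal cells, where Tnni1 differed 288-fold. Tnnt2, cardiac troponin T, read between 14.28 and 14.33 on the 4 cardiomyocyte arrays, and Myh6, the alpha myosin heavy chain, between 14.33 and 14.49. The lowest of the 6 array maxima was 14.41, so these genes sat near the top of the range, where a difference may be compressed. The 95% confidence interval of the difference ran from −1.36 to 1.30 for Tnnt2 and from −2.19 to 2.38 for Myh6. Those intervals are wide because the fibroblast arrays, which differed from each other in these genes (9.47 and 12.31 for Myh6), entered the estimate of the spread.

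Myh7, the beta myosin heavy chain of the fetal rodent ventricle, separated the neonatal arrays. It read 14.41 on neonatal replicate 1 and 9.70 on neonatal replicate 2, against 9.11 and 8.76 on the adult arrays. Its difference of −3.12 was not called (adjusted p = 0.303), and it rested on neonatal replicate 1. Among 39 Z-disc, M-band and sarcomere assembly genes 2 rose, Myot and Ankrd23, a titin-binding ankyrin repeat gene (by 2.66, with an adjusted p of 0.0557 with the replicate block). Tcap, which joins titin at the Z-disc, read 13.24 and 13.04 against 9.86 and 10.86, with an adjusted p of 0.0705. The titin gene Ttn differed by 0.26 and the alpha-actinin gene Actn2 by 0.17. The 27 measured genes of the intercalated disc, the junction between cardiomyocytes, held no call in limma, with 5 at unadjusted p under 0.05 and a median of −0.30. With the replicate block 1 of them was called.

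Atrial transcripts separated the adult arrays. Sln, which encodes sarcolipin, an atrial inhibitor of the calcium pump, read 6.04 on adult replicate 1 and 11.99 on adult replicate 2, against 12.46 and 12.97 on the neonatal arrays. The atrial light chain genes Myl7 and Myl4 read 8.01 and 12.98, and 8.02 and 12.89, on the adult arrays. Mybphl, a myosin-binding protein of the atria and conduction system, read 5.36 and 9.19. On each, adult replicate 1 was low and adult replicate 2 approached or overlapped the neonatal level. None of the 15 measured atrial markers was called in limma (2 at unadjusted p under 0.05), their median difference was −1.82, and it was −2.76 between the replicate 1 arrays and −0.44 between the replicate 2 arrays. The list's median level was 7.65 and 9.19 on the adult and 9.18 and 8.69 on the neonatal arrays. Nppa, the atrial natriuretic peptide, which the fetal ventricle also makes, read 11.11 and 13.84 against 14.17 and 14.42. Nppb, its ventricular relative, read 12.91 and 12.60 against 12.94 and 13.25. The part that atrial cells had in these differences was not tested.

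**Figure D4:**
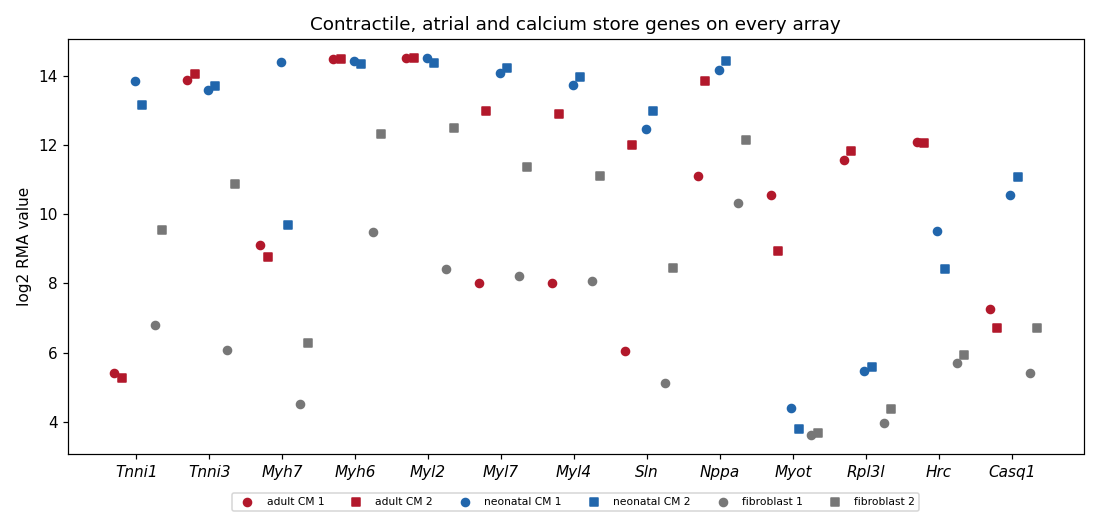
Log2 RMA values (y axis) of 13 genes, contractile, atrial and calcium store genes and Rpl3l (x axis), on the 6 arrays; circles are replicate 1 and squares replicate 2 (CM, cardiomyocytes). Tnni1 separates the age groups, Myh7 the neonatal arrays (14.41 and 9.70) and Sln, Myl7 and Myl4 the adult arrays, while Myh6 and Myl2 lie together on the cardiomyocyte arrays.

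Of 31 measured genes of the calcium store, its release and the T-tubules, 1 rose and 1 fell, with a median of 0.15. Over all genes 1.08% rose and 1.22% fell. Hrc, a histidine-rich calcium-binding protein of the sarcoplasmic reticulum, rose from 9.5 and 8.42 to 12.08 and 12.05. Casq1, the skeletal muscle calsequestrin, fell from 10.56 and 11.08 to 7.25 and 6.71, while its cardiac counterpart Casq2 differed by 0.13. The changes in Hrc and Casq1 thus ran in opposite directions. The calcium pump gene Atp2a2 differed by 0.25 (95% confidence interval −1.15 to 1.65) and the release channel gene Ryr2 by 0.85 (−1.46 to 3.16). Slc8a1, the sodium-calcium exchanger, read 8.70 and 8.72 in adult and 11.04 and 10.99 in neonatal cells and was not called (adjusted p = 0.136). Its fibroblast arrays lay further apart, at 6.08 and 8.13, and entered the estimate of the spread. The T-type channel genes Cacna1g and Cacna1h differed by −0.87 and −1.01, and Jph2, which couples T-tubule and store, by 0.41.

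Of 26 measured genes of potassium and sodium channels, pumps and connexins, 3 rose and none fell (median 0.55). Kcnd2 and Kcnd3, pore subunits of the transient outward current that shortens the adult rodent action potential, rose from 6.01 and 5.26 to 8.70 and 8.98, and from 4.95 and 4.87 to 7.57 and 8.14. All 4 probe sets of each pointed up. Scn4b, a sodium channel beta subunit, rose from 4.44 and 4.36 to 7.63 and 8.14. Kcnip2, the auxiliary subunit of the same outward current, read 10.09 and 10.55 against 9.44 and 7.30 and was not called, nor was Kcne1 (−3.25, adjusted p = 0.143). For Kcne1 the neonatal arrays (10.62 and 9.15) and the fibroblast arrays (4.19 and 6.86) both lay apart. Gja1, the main ventricular connexin, differed by −0.25.

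Ubiquitin ligase adaptors of muscle were among the strongest increases. Of 24 measured protein turnover genes of striated muscle 5 rose and none fell, against 1.08% of all genes, with a median of 0.60. Asb15 and Asb14, ankyrin repeat proteins with a SOCS box, read 11.18 and 10.96 against 6.33 and 5.50, and 9.98 and 9.87 against 5.43 and 4.37. Their relatives Asb10 and Asb18 rose by 3.48 and 1.65, while Asb5 (3.64, adjusted p = 0.0718) and Asb11 (2.20) were not called. Fbxo32, the atrogin ligase, rose by 1.98.

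Of 23 measured genes for the breakdown of ketones and branched-chain amino acids 4 rose and none fell, 22 had higher means in adult cells, and the median was 1.28. Bdh1, which oxidises hydroxybutyrate, rose from 6.46 and 5.34 to 10.16 and 9.22. Bckdha, a subunit of the branched-chain ketoacid dehydrogenase, rose from 8.94 and 8.53 to 11.16 and 11.34. Pcca, of propionate use, rose by 1.91 and Auh, of leucine breakdown, by 1.88, with 4 of 6 Auh probe sets in that direction. Oxct1, the enzyme that activates ketone bodies, differed by 1.13 and was not called. In fatty acid uptake and oxidation 30 of 31 genes had higher means in adult cells (median 1.23), against 10450 of all 18193 genes. Only Decr1 passed (1.83, with an adjusted p of 0.0534 with the replicate block). Dgat2, of triglyceride synthesis, read 12.32 and 12.20 against 9.33 and 7.44, and Cpt2, of mitochondrial fatty acid import, 12.11 and 11.95 against 10.51 and 9.64, with adjusted p of 0.0540 and 0.0548. With the replicate block the adjusted p of Cpt2 was 0.0459. Adult arrays all lay above the neonatal ones for both, as for 33.9% of all genes. The list's median difference was 0.73 between the replicate 1 arrays and 1.69 between the replicate 2 arrays.

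All 24 tricarboxylic acid (TCA) cycle genes had higher adult means, by 0.26 to 1.54 (median 0.73), but none was called in limma and 10 passed at unadjusted p under 0.05. Oxidative phosphorylation genes had a median of 0.47 over 53 genes, of which only Cox7c fell, from 6.83 and 7.53 to 5.09 on both adult arrays. A level that low may be background, so the probe set may not follow the main transcript. The muscle isoform genes Cox7a1 and Cox8b of cytochrome oxidase differed by 1.67 and 1.62 and the ubiquitous isoform genes Cox6a1 and Cox8a by −1.15 and −1.20, none of them called. The fibroblast arrays lay apart for Cox7a1 (5.34 and 8.55) and Cox8b (6.09 and 8.57) and entered the spread. Of 27 genes of glycolysis and glucose uptake 2 rose and none fell (median 0.15). Slc2a4, the insulin-responsive transporter, rose from 7.98 and 7.68 to 10.34 and 10.02, and Pfkfb2, which sets the level of a glycolytic activator, rose by 2.19. Slc2a1, the fetal transporter, differed by −1.02. Hexokinase genes Hk2 and Hk1 differed by 1.62 and −0.72. None of these last 3 was called, although Hk2 had an adjusted p of 0.0422 with the replicate block.

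Regulators of metabolism included 6 genes that rose and 1 that fell of 28 measured (median 0.56). The retinoid receptor gene Rxrg rose from 5.44 and 5.48 to 9.32 and 8.75 and Nr3c2, the mineralocorticoid receptor, by 2.59. Nampt, which makes the NAD precursor, rose from 8.24 and 7.72 to 10.86 and 10.93. Ppara, the fatty acid receptor, rose by 2.04 (adjusted p = 0.0510 with the replicate block), Mlxipl, a glucose-responsive factor, by 2.37 and Perm1 by 2.21. Prkag2, a regulatory subunit of AMP-activated kinase, fell by 2.56, with 3 of 4 probe sets in that direction. The coactivator gene Ppargc1a was not called (0.17, 95% confidence interval −2.33 to 2.67).

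Clock genes were split. Of 19 measured 3 rose and 1 fell, against 1.08% and 1.22% of all genes, and 16 had higher adult means (median 1.09). Dbp, a clock output factor, read 11.19 and 10.65 in adult and 7.78 and 8.33 in neonatal cells, and Bhlhe40 and Tef rose by 2.41 and 1.48. Clock, of the positive arm, fell by 1.24, from 9.36 and 9.45 to 8.26 and 8.06. Its partner Arntl differed by −1.41 with an adjusted p of 0.0556, or 0.0404 with the replicate block, and 1 of 2 probe sets in that direction. The time of day of each isolation is not stated in the labels.

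Of 23 measured genes of cholesterol and lipid synthesis 20 had lower adult means (median −1.01), against 7742 of all 18193 genes. For 8 of the 23 both adult arrays lay at least 1 log2 unit below both neonatal ones. None was called in limma, with 11 at unadjusted p under 0.05. The desaturase gene Scd2 read 12.03 and 11.32 in neonatal and 7.27 and 8.44 in adult cells (adjusted p = 0.0573), and Sqle, of sterol synthesis, 7.78 and 8.52 against 4.86 and 5.34 (adjusted p = 0.0767). Fasn, the fatty acid synthase, differed by −1.61. Aldh18a1, of proline synthesis, fell from 9.48 and 9.38 to 6.44 and 6.36, with all 5 probe sets in that direction. Psat1, of serine synthesis, fell from 9.21 and 10.24 to 5.02 and 5.62, while Phgdh, of the same route, differed by −0.70 (adjusted p = 0.496). In the list of ATF4 targets and hypoxia genes that holds Psat1, it alone of 25 was called. Asns and Mthfd2 of the same list read 7.0 and 10.83, and 7.22 and 10.82, on the neonatal arrays, where replicate 2 was the high one, and neither was called.

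Antioxidant and detoxification genes rose in 4 of 43 cases, against 1.08% of all genes, and fell in none (median 0.65). Ces1d, a carboxylesterase, read 8.91 and 9.38 against 4.49 and 3.85. Gstk1, a mitochondrial glutathione transferase, rose by 3.60 (adjusted p = 0.0514 with the replicate block), the cytochrome gene Cyp4b1 by 2.83 and the aldehyde dehydrogenase gene Aldh2 by 1.91. Transcripts of cytosolic ribosomal proteins were measured for 45 of 77 listed genes, and 42 of the 45 had lower adult means (median −0.64). None fell in limma, and 30 of the 45 passed at unadjusted p under 0.05. Rpl14 had the lowest difference, −1.64, with an adjusted p of 0.0566, or 0.0402 with the replicate block. Rpl3l, at 6.16, was the single member called without that block. Among 37 cardiac transcription factors Tbx20 fell (from 11.87 and 12.31 to 10.29 and 10.13), and Nkx2-5, Gata4, Tbx5 and Mef2c differed by −0.53, −0.56, −0.75 and −0.08 with no call. No splicing regulator of 25 was called in limma (11 at unadjusted p under 0.05), and Rbm20, which splices titin, differed by −0.21. Of 52 growth factors and receptors 1 rose, Fgf16 (1.92), a share near the 1.08% of all genes. Erbb2, a neuregulin coreceptor, read 6.26 and 6.48 in adult and 7.78 and 7.77 in neonatal cells, with an adjusted p of 0.0675.

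Of 58 measured collagen and matrix genes 4 fell and 1 rose, against 1.22% and 1.08% of all genes. Adult means were lower for 46 of the 58, and the median was −1.59. Fbn2, the fibrillin of developing tissue, fell from 9.84 and 9.87 to 4.46 and 4.50. The membrane protease gene Mmp14 fell by 2.89 and the basement membrane genes Lamb1 and Col4a1 by 2.04 and 1.67 (adjusted p = 0.0514 with the replicate block for Col4a1). Timp4, a protease inhibitor, rose from 5.54 and 3.58 to 9.18 and 9.66. The fibrillar collagen gene Col1a1 read 7.48 and 7.24 in adult and 11.07 and 9.22 in neonatal cells and was not called (adjusted p = 0.178).

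Markers of other cells were present in the preparations at levels that differed between arrays. RMA gives no detection call, so no marker can be called absent. The 25 fibroblast markers had medians of 6.94 and 8.42 on the adult arrays, 7.97 and 8.55 on the neonatal ones, and 10.98 and 10.86 on the fibroblast arrays; 1 rose (Ogn, 2.23) and 1 fell (Tbx20, which is also a cardiac transcription factor). The 14 epicardial markers, of the cell layer that covers the heart, had medians of 5.52 and 5.75 on the adult and 7.34 and 8.23 on the neonatal arrays. All 14 had lower adult means, 8 of them with at least 1 log2 unit between the groups, and Tbx18 fell by 3.29. The 22 endothelial markers had medians of 8.35 and 9.5 in adult and 8.66 and 7.55 in neonatal cells, and the 24 leukocyte markers of 5.75 and 6.97 against 6.62 and 5.03. Cd163, a macrophage receptor, was the single leukocyte marker called, from 3.36 and 3.27 to 5.54 and 5.87. The 17 smooth muscle and pericyte markers had medians of 8.25 and 9.37 in adult and 8.54 and 8.06 in neonatal cells. Vtn rose by 3.55 and none fell. Both adult arrays lay at least 1 log2 unit above both neonatal ones for 1 of the 17 and below them for 3. Cnn1 (−2.54) and Mcam (−2.37), neither of them called, were among those 3. The neonatal array with the lower endothelial and leukocyte medians, replicate 2, was also the one with the lower median of fatty acid genes (10.11 against 11.39). That array was lower for other lists too, such as ventricular markers (10.19 against 11.30) and TCA cycle genes (11.82 against 12.43). For some lists it was higher, such as the epicardial and fibroblast markers. The part of these other cells in the differences given above was not tested.

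**Figure D5:**
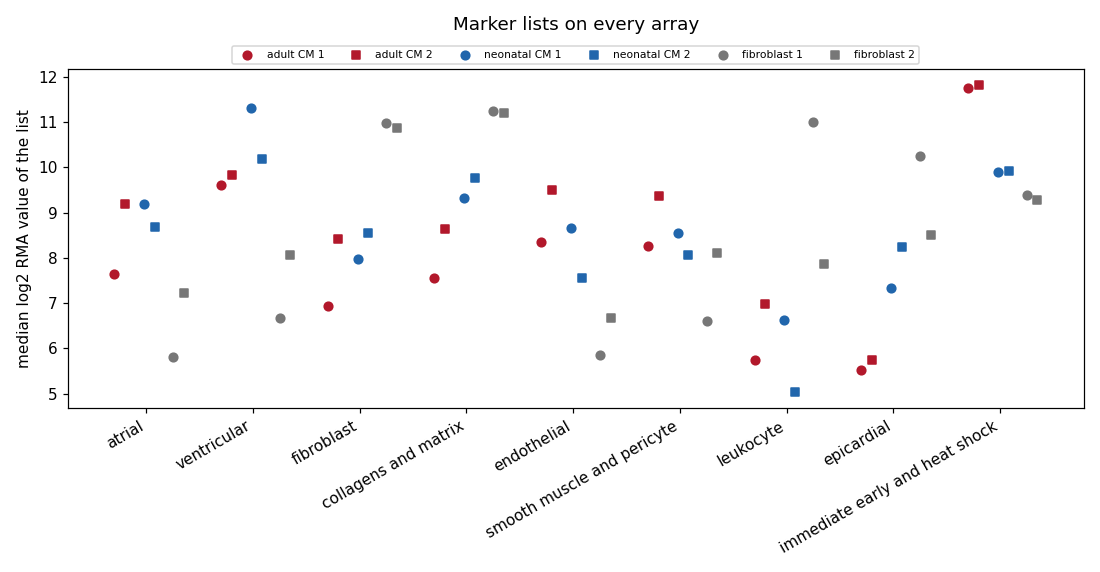
Median log2 RMA value (y axis) of 9 marker lists (x axis) on each array; circles are replicate 1 and squares replicate 2 (CM, cardiomyocytes). Epicardial medians are lower on the adult arrays (5.52 and 5.75) than on the neonatal ones (7.34 and 8.23), and immediate early and heat shock medians higher (11.75 and 11.82 against 9.90 and 9.91).

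Of 32 immediate early and heat shock genes, which respond within minutes to handling of cells, 3 rose, 27 had higher adult means and the median was 1.17. Atf3 read 12.53 and 12.64 against 9.64 and 8.90, and Junb and Zfp36 rose by 3.09 and 3.56. Both adult arrays lay at least 1 log2 unit above both neonatal ones for 11 of the 32. The isolation methods differed with age, and their part was not tested. Of 30 antigen presentation and interferon genes 27 had higher adult means (median 1.24), 14 passed at unadjusted p under 0.05 and none was called in limma. The list's median difference was 0.45 between the replicate 1 arrays and 1.86 between the replicate 2 arrays. Iigp1, an interferon-induced GTPase, read 10.23 and 12.09 against 7.11 and 6.86, and H2-Aa, a class II chain, 7.70 and 9.97 against 6.18 and 4.14. Adult replicate 2 was the higher array for both, and Iigp1 had an adjusted p of 0.0616, or 0.0433 with the replicate block. B2m, the class I light chain, differed by −0.13.

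Of 4 measured sex-linked genes 1 rose and 1 fell. Xist, made from the inactive X chromosome, read 5.89 and 6.38 in the adult cells from males and 11.71 and 11.38 in the neonatal cells from both sexes. The Y-linked Eif2s3y read 9.47 on both adult arrays, against 8.26 and 8.34 in neonatal cells. The other Y-linked genes were not called: Uty differed by 1.28 (adjusted p = 0.0760), and Kdm5d read 6.26 and 6.50 against 5.69 and 6.26, which overlap.

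Several genes had patterns over the 6 arrays close to those of the markers. For Birc5 the closest by Pearson correlation were Cdca5 (0.9995), Xist (0.9988), Kif2c (0.9987), Pbk (0.9986) and Nuf2 (0.9980), so that a sex-linked transcript ranked among mitotic ones. For Rpl3l they were Xkrx (0.9999), Myh14, a nonmuscle myosin (0.9984), Rap1gap2 (0.9983), Ccdc28a (0.9971) and 3110040M04Rik (0.9965). Xkrx differed by only 0.88 where Rpl3l differed by 6.16, since a correlation ignores the size of a difference. For Tnni1 the closest was Zc3h12c (0.9897) and for Myot Gm17762 (0.9989), with differences of −0.63 and 0.61. With 6 arrays in 3 groups these values describe the arrays and carry no test.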

How the data were processed

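Total RNA from adult and neonatal mouse cardiomyocytes and neonatal cardiac fibroblasts was measured on 1 array per sample. The deposited values are log2 expression values per probe set, made with RMA per the submitters' processing notes; its version, and whether all arrays were normalized together, are not given in the sources used here. Medians per array ran from 5.60 to 5.67. The number of arrays limits the precision. Of 45101 probe sets, 64 controls were left out, 34945 had 1 gene, 932 several and 9160 none.

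One model was fitted with limma 3.58.1 in R 4.3.3 to 18193 genes on the 6 arrays, without a replicate term, with 3 residual degrees of freedom and p-values adjusted by Benjamini-Hochberg over all genes. It was tested on simulated data. Deviations of same-numbered arrays from their group means correlated at 0.27, 0.21 and 0.18 over genes in the 3 pairs of groups, so a fit with the replicate number as a block was run as well. Where it changes the call of a gene named in the text, its adjusted p is printed.

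Genes were named by rule: the 20 largest increases and decreases that passed without overlap, the 5 smallest adjusted p-values in each direction, key genes and the largest differences of 40 gene lists, the largest gaps between arrays of a group, and the closest patterns to Rpl3l, Tnni1, Myot and Birc5. Members and lists were chosen with earlier results of these data known, so lists are described by counts and medians and not tested. Alternatives were other sets of arrays, groupings, probe set rules, scalings and variance models.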

Additional observations from a re-analysis of the deposited data

How the results depend on the processing

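The count of 418 genes (196 rose, 222 fell) depended most on which arrays entered. With the 4 cardiomyocyte arrays alone it was 164, with 69 that rose and 95 that fell, and 143 of these were among the 418. Leaving out 1 array at a time gave 0 to 164 genes, 0 to 93 that rose and 0 to 95 that fell. Leaving out either fibroblast array equals the fit of the 4 cardiomyocyte arrays, since a lone array adds nothing to the spread. With the groups that the titles give the count was 114 (40 rose, 74 fell). Without both neonatal replicate 1 arrays it was 0 (0 rose, 0 fell) in limma, with 3845 genes at unadjusted p under 0.05. With the replicate block, which follows the pairing by replicate number, 607 genes passed (234 rose, 373 fell), and 361 of the 418 remained. With the probe set of the largest range 138 genes fell. In these settings fewer or more arrays or degrees of freedom entered, or other probe sets; beyond that, the cause was not tested. Where no gene passed, the adjusted p of the 418 genes lay between 0.0551 and 0.258. The mean of all probe sets gave 354 genes, the probe set of the largest range 279, and the other scalings, filter and variance models 371 to 487. Centring the arrays moved the median of all genes by 0.09 and the filter on dim genes by −0.11. RMA values carry no detection call, so a low level may be background and a small difference at low signal may be compressed.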

Other observations

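The 9 erythroid markers had a median of 4.82 on both adult arrays, against 4.36 and 4.19 in neonatal cells, and none was called in limma, with 3 at unadjusted p under 0.05. The 12 Schwann and neural markers had medians of 5.49 and 6.07 against 5.34 and 5.77 with no call in limma and 5 at unadjusted p under 0.05. The 10 fat cell markers had medians of 5.39 and 5.37 against 5.85 and 4.48 with no call in limma and 3 at unadjusted p under 0.05. Slc36a2, an amino acid transporter of brown fat, read 8.71 and 8.99 against 6.53 and 4.90. The 12 ventricular markers and the 26 natriuretic peptide and autonomic receptor genes had median differences of 0.29 and 0.25, each with no call in limma and 2 at unadjusted p under 0.05.

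The 5 genes that lay furthest apart between the neonatal arrays had various roles. Cemip, which degrades hyaluronan, read 4.46 and 10.91, and Col8a1, a short-chain collagen gene, 4.85 and 10.99. Ptgs2, the inducible cyclooxygenase, read 4.98 and 11.06. Aplnr, the apelin receptor, ran the other way at 9.78 and 3.64, as did Igfbp5 at 11.98 and 5.98. Replicate 2 was thus high for 3 of these 5 genes and low for 2. On the fibroblast arrays Cemip read 12.28 and 12.11, Col8a1 12.99 and 12.83, and Aplnr 3.60 and 3.85. For each of these, neonatal replicate 2 lay nearer to the fibroblasts than replicate 1 did. Ptgs2 read 8.11 and 8.06 in fibroblasts, between the neonatal arrays, and Igfbp5 9.73 and 6.38. The part of fibroblasts in these gaps was not tested.

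Some genes differed by replicate number in all 3 groups. Pik3cd, a kinase subunit of blood cells, read 8.11 and 12.40 in adult cardiomyocytes, 8.08 and 11.96 in neonatal ones and 7.86 and 11.40 in fibroblasts, and 3 of its 6 probe sets shared the sign of its age difference. Gata4, a cardiac transcription factor, read 9.21 and 7.23 in adult and 9.82 and 7.73 in neonatal cardiomyocytes, against 8.65 and 6.95 in fibroblasts. Ilk, Tln1 and Pnpla2 also read higher on replicate 1 in each group. With the replicate block in limma the adjusted p was 0.0459 for Ilk and 0.0424 for Pnpla2, and neither was called without it. Gata4, Ilk, Tln1 and Pnpla2 were singled out for this pattern after their values were seen.

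Promoter motifs other than CHR, E2F and CCAAT were counted in the same windows. The MEF2 motif stood in 2.52% of windows of genes that rose and 2.70% of those that fell, against 3.34% of all. The serum response factor motif, the CArG box in its loosest form, stood in 88.7% and 84.9%, against 82.8%. The nuclear receptor half-site AGGTCA stood in 18.9% and 11.4%, against 13.9%, and the E-box CACGTG in 7.55% and 9.19%, against 9.02%. Matches were counted on both strands and were not tested.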
